A study of Mus musculus with 12 samples.

Results

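Genes of the tight and adherens junctions were followed in mouse lung after ventilator-induced lung injury (VILI) in wild type and Gadd45a knockout mice. The 9 genes, chosen by symbol, were the claudins Cldn3, Cldn7 and Cldn18, occludin (Ocln), the junctional adhesion molecule F11r, the plaque proteins Tjp1 and Cgn, E-cadherin (Cdh1) and plakoglobin (Jup). They were chosen with earlier results of these data known. They had 16 probe sets on the array, 15 of which passed the filter on low values, and made up 9 of the 10996 genes tested. The exception was a further F11r probe set, 1436374_x_at, which lay between 2.65 and 2.73 on every array. Lung RNA of mice aged 8 to 12 weeks was hybridised to 12 Affymetrix arrays, 3 in each of 4 groups. These were wild type SB, wild type VILI, GADD45-/- SB and GADD45-/- VILI. GADD45-/- is called knockout here, some VILI labels write it GADD-/-, and the series title gives the gene as Gadd45a. VILI mice were ventilated for 4 hours with 30 ml/kg tidal volume at a rate of 65 breaths per minute. SB is not spelled out in the labels, and the series design lists a wild type control group where the titles have wild type SB. Per the same design text each group had 3 mice, and p-values measure the spread between these mice. The sources used here state neither strain, sex and batch nor how the knockout was made.

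Tight junctions seal the space between neighbouring epithelial cells near their apical edge. Claudins form the paracellular barrier or its pores, occludin and F11r span the membrane beside them, and the plaque proteins ZO-1 (Tjp1) and cingulin (Cgn) tie them to actin. Below them, adherens junctions join cells through E-cadherin, which binds catenins, and plakoglobin is the catenin shared by adherens junctions and desmosomes. In the lung these contacts limit the passage of fluid into the airspace, and Cldn18 is the claudin typical of alveolar epithelium.

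All values are log2 expression values, so a difference of 1 is a factor of 2. The array medians lay between 4.36 and 4.58, and all 9 genes lay above them on each array, down to the lowest value of 7.92 for Cgn. Gadd45a lay between 8.62 and 10.33 in wild type lungs and between 4.58 and 6.15 in knockout lungs. Mean type I epithelial marker levels were 11.98 to 12.78 and mean type II levels 12.67 to 13.27, so epithelial RNA was present on each array. The arrays of knockout SB replicate 3 and knockout VILI replicate 3 stood apart, with mean B cell marker levels of 9.78 and 9.92, against 5.21 to 7.09 on the others. Knockout VILI replicate 3 also had the lowest mean type I (11.98), type II (12.67), club (13.36) and endothelial (10.34) marker levels of the 12 arrays. Its mean ciliated marker level, 7.84, was not the lowest, which was 7.70 in knockout VILI replicate 2. Changes without both arrays are given beside the results. For the 7 genes not called after VILI, the averaged changes without them lay between -0.21 (Cldn18) and 0.25 (Cldn3), and the lowest limma adjusted p was 0.143 (Ocln).

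After VILI, Jup was lower and Cldn7 was higher, and the other 7 genes did not pass the test. Averaged over genotypes, Jup fell by 0.91 on the log2 scale and Cldn7 rose by 0.54. The call was a limma adjusted p under 0.05, with Benjamini-Hochberg adjustment over the 10996 genes. So 2 of 9 genes (22.2%) were called, against 17.8% of all genes, of which 8.42% were higher and 9.39% lower. This share is near the background. Jup's call held under all 21 alternative settings of the analysis, and that of Cldn7 under 14 of 21. Within wild type alone 0 of 9 genes were called, where 2.64% of all genes were, and within knockout alone 0 of 9, where 4.47% were. At an unadjusted p under 0.05 the counts were 2 in wild type (Cldn18 and Jup), 3 in knockout (Cldn7, Jup and Cdh1) and 4 averaged (these 4 genes). All genes reached that level in 21.2%, 22.2% and 33.9% of cases. VILI and SB groups did not overlap for 3 of 9 genes in wild type and for 3 of 9 in knockout, where 31.6% and 23.6% of all genes did not. Jup was the 1 gene without overlap in both genotypes, where 12.2% of all genes had none.

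**Figure D1:**
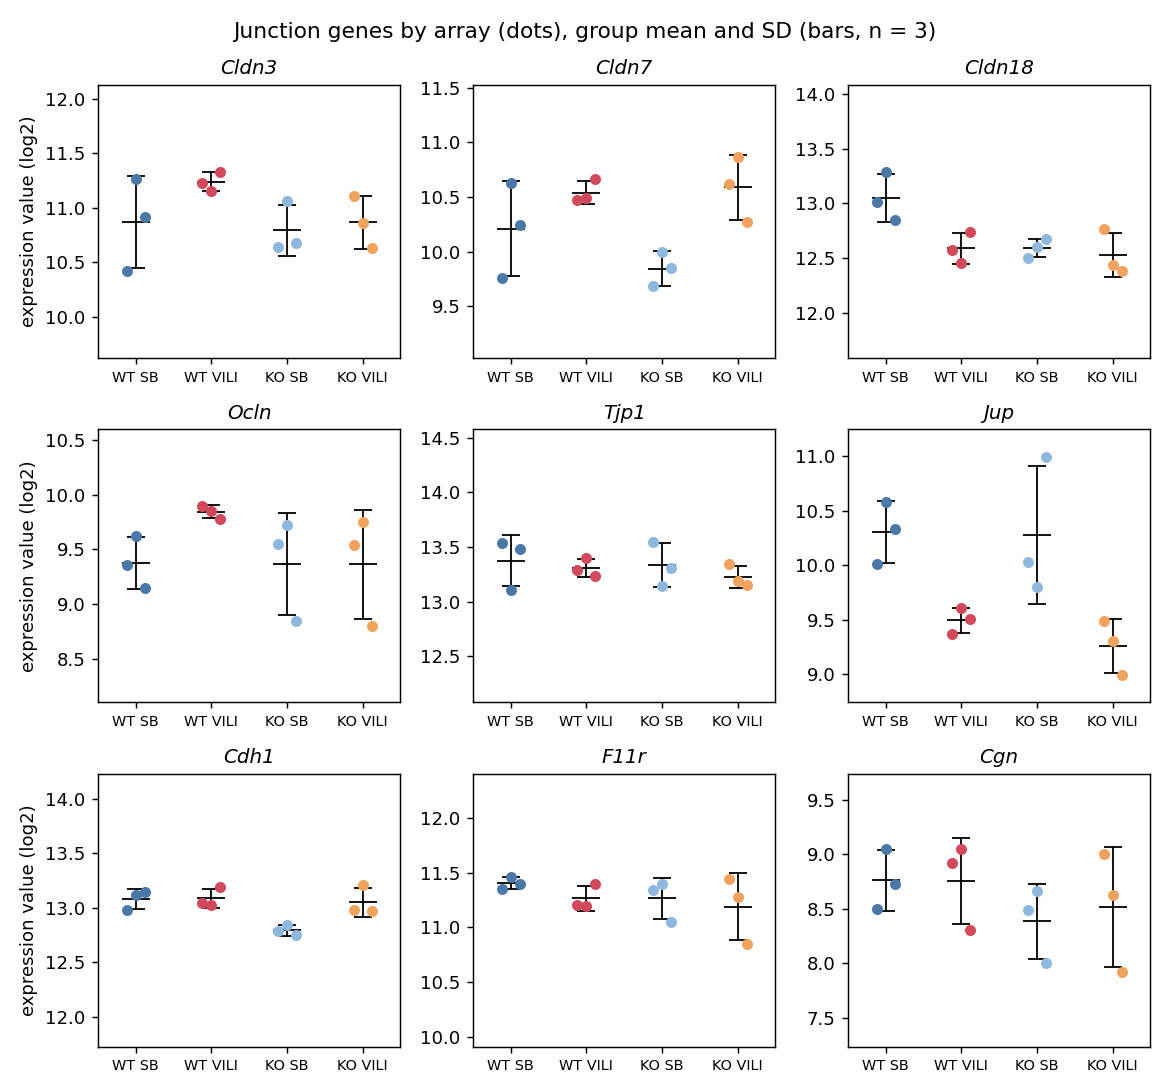
Log2 expression value of each of the 9 junction genes on each of the 12 arrays, by group (WT, wild type; KO, knockout). Dots are arrays, the long bar is the group mean and the short bars its SD (n = 3); each panel has its own range. Jup lies lower in both VILI groups than in both SB groups, while Cgn and Tjp1 overlap in all 4 groups.

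Jup encodes plakoglobin, an armadillo protein that links cadherins to the cytoskeleton. Its values in wild type SB were 10.01, 10.57 and 10.33, a mean of 10.30 ± 0.28 (SD, n = 3; group levels of the other genes are given the same way). In wild type VILI they were 9.37, 9.60 and 9.51 (9.50 ± 0.12). In knockout SB they were 10.03, 9.80 and 10.99 (10.27 ± 0.63), and in knockout VILI 9.48, 9.30 and 8.995 (9.26 ± 0.25). Each VILI value was below each SB value in both genotypes. The limma contrast averaged over genotypes was -0.91 (SE 0.19, adjusted p = 0.00927), a 1.88-fold lower level, with a 95% confidence interval of -1.32 to -0.50. The within-genotype changes were -0.81 (SE 0.27, adjusted p = 0.118) in wild type and -1.01 (SE 0.27, adjusted p = 0.0559) in knockout by limma. Knockout SB replicate 3 had the highest value of all arrays and knockout VILI replicate 3 the lowest. Without both of these arrays the averaged change was -0.66 (adjusted p = 0.00946), the wild type change -0.81 passed the test (adjusted p = 0.0243) and the knockout change was -0.52 (adjusted p = 0.163). The wild type change also passed without knockout SB replicate 3 (adjusted p = 0.0316) and with only the groups compared in the fit (0.0417). In the fits where it passed it stayed -0.81, and only the estimate of the spread differed. The knockout change passed without knockout SB replicate 2 (0.0378), with arrays centred on their medians (0.0496) and with quantile normalization (0.0453). Each genotype's change passed in 3 of 22 alternatives, with a highest limma adjusted p of 0.282 in wild type and 0.195 in knockout. Jup had 1 probe set, 1426873_s_at, whose suffix marks probes that can match more than 1 transcript. These were whole-lung samples, where fewer cells of a type and less RNA per cell cannot be told apart. Markers of other cells moved with VILI too: mean neutrophil marker levels were 6.25 to 7.52 in SB lungs and 9.59 to 11.43 in VILI lungs, and all 7 tested neutrophil markers rose in each genotype. Of the lung's own cells, 6 of 10 endothelial, 5 of 6 club, 4 of 8 ciliated, 3 of 9 type II and 1 of 8 type I markers were called lower after VILI, averaged over genotypes. Of all genes 9.39% were called lower, and the type I count is near that share. The part of any of these cells in the Jup and Cldn7 results was not tested.

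The promoters of the genes that passed the test, Jup and Cldn7, are shown as the sequence context of the 2 called genes. RefSeq's table for GRCm38.p6 held promoters for 8 of the 9 genes, 11 in all, and none for Cdh1. Each sequence below holds the 250 bases before an annotated start, 5′ to 3′ on the gene's strand. Jup's lies at chr11:100397791-100398040 on the minus strand, and those of Cldn7's starts lie at chr11:69964529-69964778 and chr11:69965171-69965420 on the plus strand. Capitals mark matches to the E-box CACCTG, on either strand.
Jup: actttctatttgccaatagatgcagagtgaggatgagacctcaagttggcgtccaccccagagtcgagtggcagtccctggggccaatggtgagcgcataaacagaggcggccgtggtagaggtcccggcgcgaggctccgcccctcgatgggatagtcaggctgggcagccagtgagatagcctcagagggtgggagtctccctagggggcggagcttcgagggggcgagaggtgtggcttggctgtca
Cldn7, start 1: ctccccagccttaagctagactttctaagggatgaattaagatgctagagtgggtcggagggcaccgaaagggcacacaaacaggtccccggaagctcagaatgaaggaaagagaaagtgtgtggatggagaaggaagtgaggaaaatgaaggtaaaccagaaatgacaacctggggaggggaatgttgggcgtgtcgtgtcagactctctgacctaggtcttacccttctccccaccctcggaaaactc
Cldn7, start 2: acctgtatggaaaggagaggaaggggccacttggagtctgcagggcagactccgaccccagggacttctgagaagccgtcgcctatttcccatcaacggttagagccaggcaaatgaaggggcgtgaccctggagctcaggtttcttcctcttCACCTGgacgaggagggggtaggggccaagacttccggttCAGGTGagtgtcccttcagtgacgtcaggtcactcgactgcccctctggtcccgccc
The Cldn7 promoter at start 2 held CACCTG 2 times, at 97 to 92 and 57 to 52 bases before the start, while the promoters of Jup and of Cldn7's start 1 held none. Over the 11 promoters, CACCTG was found in 3, of Cldn7, Ocln and F11r, and in 17.2% of the 32851 mouse promoter windows of that length. The AP-1 motif TGANTCA was found in F11r alone and in 6.75% of all windows. The Grainyhead motif AACCNGTT was found in Cgn alone and in 1.79% of all windows. The motifs were searched on both strands and chosen after the expression values were known. A match describes letters in this window and says nothing of binding.

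Cdh1, which encodes E-cadherin, the transmembrane adhesion protein of epithelial adherens junctions, varied little. Its values were 12.98, 13.12 and 13.15 in wild type SB (13.08 ± 0.09) and 13.04, 13.03 and 13.19 in wild type VILI (13.09 ± 0.09). They were 12.79, 12.84 and 12.75 in knockout SB (12.79 ± 0.05) and 12.98, 13.21 and 12.97 in knockout VILI (13.05 ± 0.13). Knockout SB lay below all 3 other groups, with no overlap, and the others overlapped. The VILI change was 0.26 in knockout (SE 0.09, limma adjusted p = 0.107) and 0.01 in wild type, neither past the test. Its within-group SD of 0.09 was smaller than that of most genes: 5.79% of all genes had a smaller one.

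Cldn7 encodes a claudin of epithelial cells. Its values in wild type SB were 9.76, 10.63 and 10.24 (10.21 ± 0.43), and in wild type VILI 10.47, 10.49 and 10.66 (10.54 ± 0.11). In knockout SB they were 9.68, 10.00 and 9.85 (9.84 ± 0.16), and in knockout VILI 10.62, 10.87 and 10.28 (10.59 ± 0.30). The knockout groups did not overlap, whereas in wild type SB replicate 2 lay within the VILI range. The averaged change was 0.54 (SE 0.15, limma adjusted p = 0.0281), 1.45-fold, with a 95% confidence interval of 0.22 to 0.86. The changes were 0.33 (adjusted p = 0.383) in wild type and 0.74 (SE 0.21, adjusted p = 0.0652) in knockout by limma. The knockout change passed the test without wild type SB replicate 1 (adjusted p = 0.0332) or 2 (0.0414) and with the replicate number as a block (0.0392). It stayed 0.74 in these fits, where only the estimate of the spread differed. They were 3 of 22 alternatives, and the highest limma adjusted p was 0.212, without knockout VILI replicate 2. For the block, deviations from group means correlated at 0.0467, 0.211 and 0.426 between same-numbered knockout SB and knockout VILI arrays. A pairing of these 2 groups by number was thus not shown. Without both replicate 3 arrays of knockout the averaged change was 0.62 (adjusted p = 0.0316). The averaged change lost the call without wild type SB replicate 3 (adjusted p = 0.0558), knockout SB replicate 1 (0.0632), wild type VILI replicate 1, 2 or 3 (0.0508, 0.0573 and 0.0603) or knockout VILI replicate 2 (0.0679), and with arrays centred on their medians (0.0565).

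Cldn18, the alveolar claudin, had values of 13.02, 13.29 and 12.85 in wild type SB (13.05 ± 0.22) and 12.57, 12.45 and 12.74 in wild type VILI (12.59 ± 0.14). In knockout SB they were 12.50, 12.60 and 12.67 (12.59 ± 0.08) and in knockout VILI 12.76, 12.44 and 12.38 (12.53 ± 0.20). Wild type SB lay above the other 3 groups, which overlapped each other. The wild type VILI change of -0.46 (SE 0.13, limma adjusted p = 0.0826), the knockout change of -0.06 and the averaged change of -0.26 (SE 0.09, adjusted p = 0.0689) did not pass the test. The averaged change passed the test without knockout VILI replicate 1 (adjusted p = 0.0283) and with quantile normalization (0.0426). Its probe sets differed: 1425445_a_at gave -0.05 in wild type and -0.23 in knockout, while 1449428_at gave the values above. Mean type I marker levels were 12.61 to 12.78 in wild type SB, 12.38 to 12.52 in wild type VILI, 12.45 to 12.53 in knockout SB and 11.98 to 12.53 in knockout VILI. Mean type II marker levels were 13.18 to 13.27 in wild type SB and 12.95 to 13.15 in wild type VILI. They were 13.16 to 13.24 in knockout SB and 12.67 to 13.18 in knockout VILI. The part of type I or type II cells in the Cldn18 values was not tested.

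Cldn3, an airway and alveolar claudin, was measured by 4 probe sets. On 1460569_x_at, the brightest, values were 10.42, 11.26 and 10.92 in wild type SB (10.87 ± 0.42) and 11.22, 11.16 and 11.33 in wild type VILI (11.24 ± 0.09). They were 10.64, 11.06 and 10.68 in knockout SB (10.79 ± 0.23) and 11.11, 10.86 and 10.63 in knockout VILI (10.87 ± 0.24). On this probe set SB and VILI overlapped in both genotypes. On 1426332_a_at they did not overlap in wild type, with 9.33 to 10.22 in SB and 10.34 to 10.49 in VILI. That change of 0.61 did not pass the test with each probe set tested (limma adjusted p = 0.210). The 4 probe sets gave VILI changes of 0.37 to 0.61 in wild type and 0.04 to 0.07 in knockout. The averaged change of 0.22 (SE 0.14, limma adjusted p = 0.301) did not pass the test.

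Ocln encodes occludin. Its values were 9.36, 9.63 and 9.15 in wild type SB (9.38 ± 0.24) and 9.90, 9.85 and 9.78 in wild type VILI (9.84 ± 0.06), without overlap. In knockout SB they were 9.55, 9.72 and 8.84 (9.37 ± 0.47) and in knockout VILI 9.54, 9.75 and 8.80 (9.36 ± 0.50), the lowest values of each coming from its replicate 3 array. The wild type change was 0.46 (SE 0.26, limma adjusted p = 0.334) and the knockout change -0.01. Without both replicate 3 arrays these were 0.46 (SE 0.13, adjusted p = 0.0667) and 0.01. The other Ocln probe set, 1440220_at, gave -0.17 in wild type, the opposite direction, and -0.04 in knockout.

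F11r, the junctional adhesion molecule JAM-A, had values of 11.36, 11.47 and 11.40 in wild type SB (11.41 ± 0.06) and 11.21, 11.20 and 11.40 in wild type VILI (11.27 ± 0.11). In knockout SB they were 11.35, 11.40 and 11.05 (11.27 ± 0.19), and in knockout VILI 11.44, 11.28 and 10.85 (11.19 ± 0.31). The groups overlapped. The averaged change was -0.11 (SE 0.10, limma adjusted p = 0.496), and -0.08 without both knockout replicate 3 arrays.

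**Figure D2:**
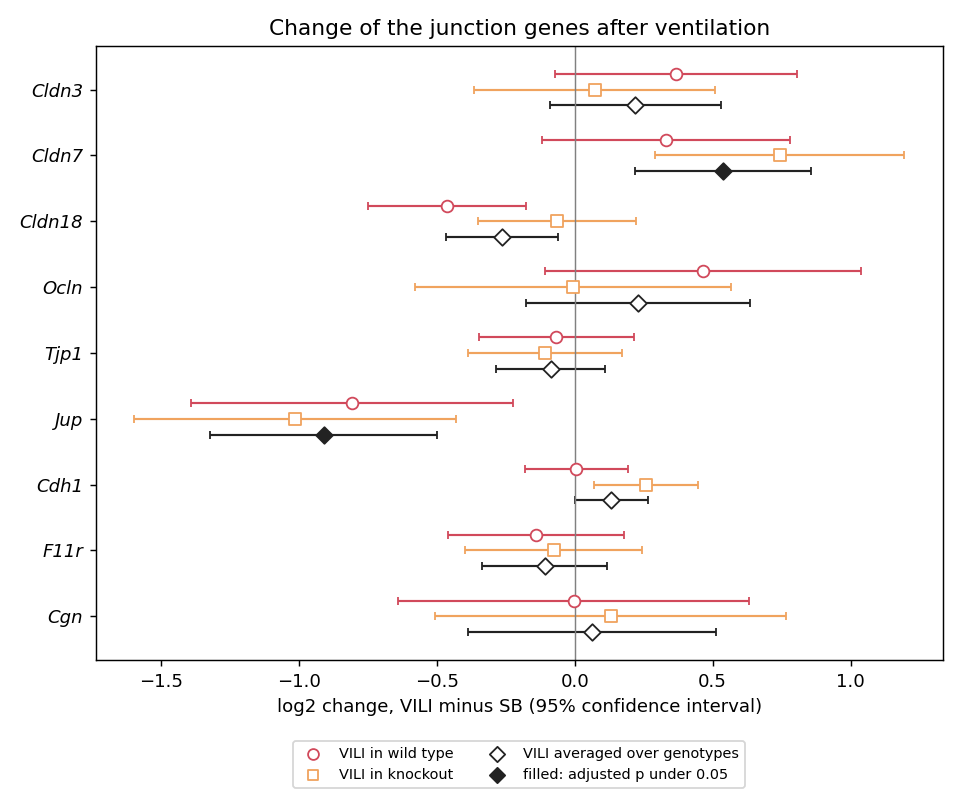
Log2 change from SB to VILI for each junction gene, in wild type, in knockout and averaged over genotypes, with 95% confidence intervals. The filled points, Jup at -0.91 and Cldn7 at 0.54, are the averaged changes with an adjusted p under 0.05.

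Tjp1 encodes ZO-1, the scaffold that connects claudins and occludin to actin. Its values were 13.54, 13.11 and 13.48 in wild type SB (13.38 ± 0.23) and 13.29, 13.40 and 13.24 in wild type VILI (13.31 ± 0.08). They were 13.55, 13.14 and 13.31 in knockout SB (13.33 ± 0.20) and 13.34, 13.18 and 13.15 in knockout VILI (13.23 ± 0.10). The groups overlapped, and the averaged change was -0.09 (SE 0.09, limma adjusted p = 0.538), with a 95% interval of -0.28 to 0.11. Cgn, the plaque protein cingulin, had values of 8.50, 9.05 and 8.73 in wild type SB (8.76 ± 0.28) and 8.91, 9.05 and 8.31 in wild type VILI (8.76 ± 0.39). Knockout SB values were 8.48, 8.67 and 8.01 (8.38 ± 0.34) and knockout VILI values 9.003, 8.63 and 7.92 (8.52 ± 0.55). The averaged change was 0.06 (SE 0.21, limma adjusted p = 0.854), with a 95% interval of -0.39 to 0.51, and 0.12 without both knockout replicate 3 arrays. On their brightest probe sets, the lowest values of Ocln, F11r and Cgn came from the replicate 3 arrays of knockout SB and knockout VILI. These arrays had high B cell markers, and the second also had the lowest type I, type II and club marker levels. Other kept probe sets differed. Ocln 1440220_at was lowest in wild type SB replicate 1 (7.82), with 8.00 and 8.13 on the 2 replicate 3 arrays. Cgn 1430329_at was lowest in knockout SB replicate 2 (5.52), with 6.24 and 5.56 on the 2 replicate 3 arrays. The part of B cells or of epithelial cells in these values was not tested.

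**Figure D3:**
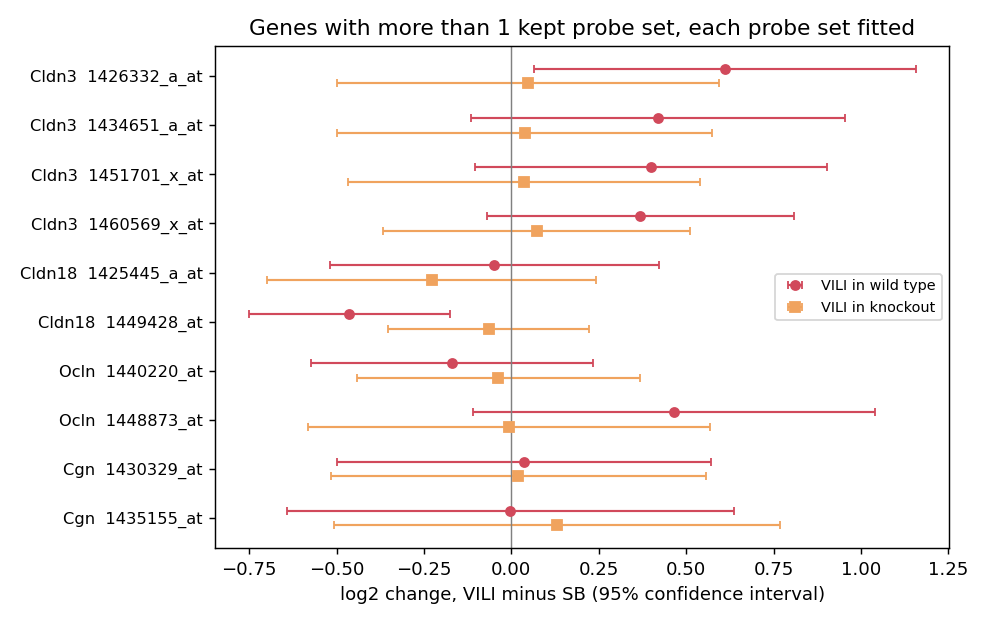
Log2 change from SB to VILI for each probe set of the junction genes with more than 1 kept probe set, in wild type and in knockout, with 95% confidence intervals. The Cldn18 probe sets lie apart in wild type, at -0.05 and -0.46, and so do those of Ocln, at -0.17 and 0.46.

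In knockout against wild type lungs, 0 of 9 genes were called by limma in SB, where 0.109% of all genes were, and 0 of 9 in VILI, where 0.1% were. At an unadjusted p under 0.05 the counts were 2 of 9 in SB, against 10.1% of all genes, and 0 of 9 in VILI, against 6.88%. In SB all 9 genes, each read from its brightest probe set, had lower means in knockout, where 62.2% of all genes did. Cldn18 was -0.46 (SE 0.13, limma adjusted p = 0.311) and Cdh1 -0.29 (SE 0.09, adjusted p = 0.315), and the groups did not overlap for these 2 genes, as for 15.2% of all genes. Other kept probe sets of 2 of the genes gave the opposite sign in SB: Cldn18 1425445_a_at gave 0.17 and Cldn3 1426332_a_at 0.18. In VILI 8 of 9 genes had lower means in knockout, where 52.3% of all genes did. Cldn3 was -0.37 and Ocln -0.48 (limma adjusted p = 0.752 for each), and both had non-overlapping groups, as 14.8% of all genes had. The other 3 Cldn3 probe sets gave -0.44 to -0.38 in VILI, while the other Ocln probe set, 1440220_at, gave 0.04, the opposite sign. Without both replicate 3 arrays, Cldn18 in SB was -0.50 (limma adjusted p = 0.175) and Cdh1 -0.26 (adjusted p = 0.230), and in VILI Cldn3 was -0.25 and Ocln -0.20.

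The VILI change in knockout minus that in wild type, the interaction, was called by limma for 0 of 9 genes and 0% of all genes. At an unadjusted p under 0.05 the counts were 0 of 9 and 2.62%. The nearest was Cldn18, at 0.40 (SE 0.19, unadjusted p = 0.0531), followed by Cdh1 at 0.25 (unadjusted p = 0.0589). For Cldn18 this holds for 1449428_at, and 1425445_a_at gave -0.18, the opposite sign (unadjusted p = 0.567). For Jup it was -0.21 (95% interval -1.03 to 0.62) and for Cldn7 0.41 (-0.22 to 1.05). These intervals are wide, so equal responses in both genotypes were not shown.

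The other junction genes and their regulators were read from 7 lists, 111 genes of which 95 were tested. After VILI, averaged over genotypes, 10 of these rose and 13 fell, 24.2% against 17.8% of all genes. The lists were chosen with earlier results of these data known, so these shares do not test the lists against all genes. The median change over all genes was -0.03. Among 22 other tight junction genes 4 rose and 3 fell, with a median of -0.06. Cldn4, a claudin induced in injured lung epithelium, rose by 3.88 (SE 0.65, limma adjusted p = 0.00348). Its mean levels were 3.74 and 2.70 in wild type and knockout SB, below the array medians, and 7.37 and 6.82 after VILI. Wild type SB replicate 2, at 5.76, lay above its array's median of 4.36. With SB means this low the size is approximate, and the gene passed the filter on low values mainly through its VILI arrays. The change was called in knockout (4.12, limma adjusted p = 0.0306) but not in wild type (3.63, adjusted p = 0.0604). Cldn23 rose by 1.11 (adjusted p = 0.00603) and Marveld2, which encodes tricellulin of the tricellular contacts, by 0.58 (adjusted p = 0.0176) by limma. The Cldn23 change was 1.54 in wild type (limma adjusted p = 0.0259). In knockout it was 0.67 and not called (adjusted p = 0.205), and SB and VILI overlapped there. Tjp3, encoding ZO-3, changed by -0.91 (adjusted p = 0.0127), the scaffold Magi3 by -0.50 (adjusted p = 0.0335) and Mpdz by -0.32 (adjusted p = 0.0379) by limma. Of 22 adherens junction and desmosome genes 2 rose, Perp by 0.57 and Zyx by 0.39, and 4 fell, among them Evpl (-0.87), Ajuba (-0.49) and Ctnnd1 (-0.39), the p120 catenin. The limma adjusted p of these 5 lay between 0.0290 and 0.0467. Evpl was low, with a mean of 4.59 in knockout VILI, near the array medians, so the size of its fall is approximate.

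**Figure D4:**
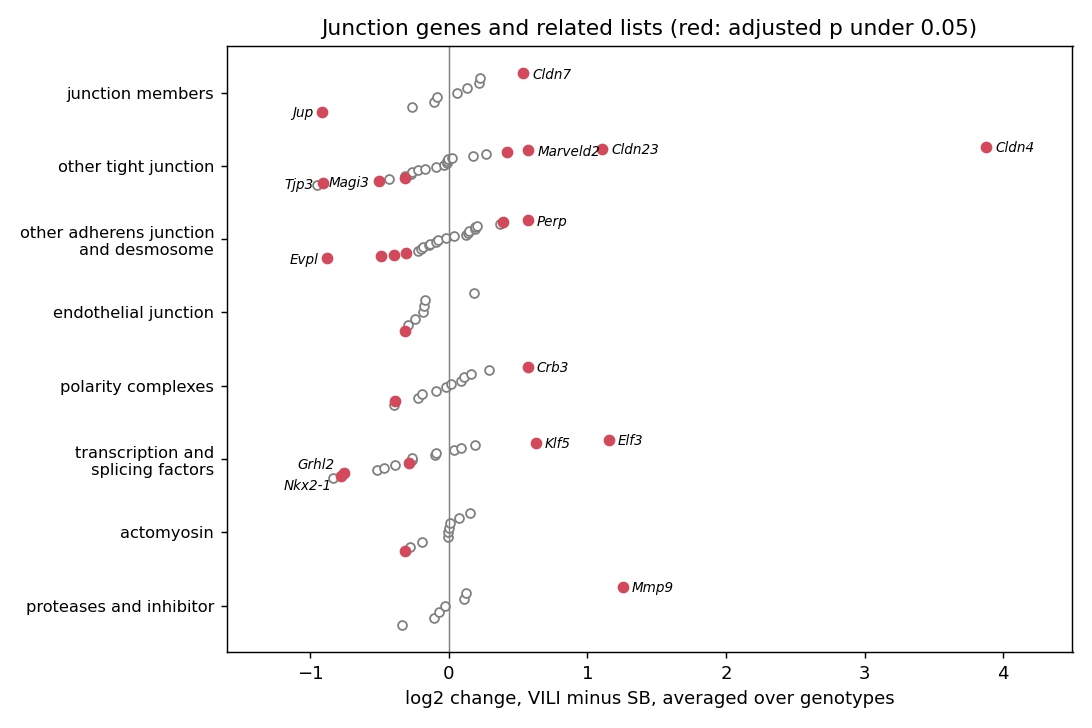
Log2 change from SB to VILI, averaged over genotypes, of each of the 9 junction genes and of the tested genes of 7 related lists. Red points have an adjusted p under 0.05; the highest is Cldn4 at 3.88, and in 4 of the 7 related lists red points lie on both sides of 0.

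Of the 16 epithelial transcription and splicing factors tested, 2 rose and 3 fell. The rises were Elf3, an epithelial ETS factor, by 1.16 (SE 0.18, limma adjusted p = 0.00251) and Klf5 by 0.63 (adjusted p = 0.0193). The falls were Nkx2-1, the lung lineage factor, at -0.78 (adjusted p = 0.0355), Grhl2, an activator of junction genes, at -0.76 (adjusted p = 0.00723) and Zeb1, a repressor of Cdh1, at -0.28 (adjusted p = 0.0249) by limma. In the polarity list Crb3, an apical determinant, rose by 0.57 and Pard6g changed by -0.38, 2 of 12 genes. Of the remaining lists, Pecam1, the endothelial adhesion molecule, was the 1 of 7 endothelial junction genes called (-0.31), Mylk, the kinase that tenses the actomyosin ring, 1 of 9 (-0.32), and Mmp9, a protease carried by neutrophils, 1 of 7 (1.26). The counts of the polarity list and of these lists were near or below the 17.8% of all genes called in either direction. In wild type alone Cldn23 (1.54), Elf3 (1.24), Grhl2 (-0.94) and Mmp9 (1.18) were called, where 2.64% of all genes were. In knockout alone Cldn4 (4.12), Ybx3 (0.52), Elf3 (1.07) and Mmp9 (1.33) were called, a count near the 4.47% of all genes. In both genotype comparisons and in the interaction 0 of the 95 genes were called by limma. Of the 23 genes called, 12 stayed past the test when any 1 array was left out, and the other 11 lost the call at least in 1 such fit, with a highest adjusted p between 0.0535 and 0.101. Among these were Magi3, Mpdz, Perp, Zyx, Evpl, Ajuba, Ctnnd1, Nkx2-1 and Zeb1, while Klf5 was lost without wild type VILI replicate 2 only (adjusted p = 0.0535). Evpl stayed past the test in 2 of the 12 fits. The calls within 1 genotype held in 2 (Ybx3 in knockout) to 8 (Mmp9 in knockout) of the 12 fits.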

How the data were processed

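Lung RNA (6 ug of total RNA per sample, per the labels' protocols) was hybridised to Affymetrix mouse arrays, 1 per mouse. The values used are log2 expression values deposited by the authors, already normalized. MAS5 and GCRMA appear in the submitters' processing notes, with no version, role or order, and no further scaling was applied. The 64 control probe sets were left out, probe sets with 1 gene symbol were kept when they exceeded the median of the array on at least 3 of 12 arrays, and the brightest kept probe set stood for each gene. Values near the lower end carry little signal, so their fold changes are approximate, and precision is limited by the number of arrays.

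Files were read in R 4.3.3 (package data.table, 1.17.8), and limma 3.58.1 fitted 1 mean per group to all 12 arrays with a mean-variance trend, and 6 contrasts were tested, two-sided. The scripts were tested on simulated data. The 9 genes and the lists were chosen with earlier results of these data known. All 9 genes are named. Of other lists, genes past the test are named where 5 or fewer, otherwise the 3 largest rises and falls, and for the 3 genes with the largest SD the 3 genes most like them. Sample titles number replicates 1 to 3 in each group. Same-numbered arrays had correlated deviations above 0.1 in all 3 pairs only between wild type SB and knockout SB (0.231 to 0.526). The main fit had no block, and a further fit took the replicate number as a block over all 12 arrays. Its values for that comparison are given with the dependence on the processing. The block also covers the VILI groups, whose numbers were not shown to pair, so blocked values of other comparisons are an alternative setting only. No batch was given. Alternatives changed the filter, scaling, probe set rule, samples in the fit, variance trend, replicate block and arrays left out. Promoters came from RefSeq (GRCm38.p6).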

Additional observations from a re-analysis of the deposited data

How the results depend on the processing

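Jup's averaged VILI change stayed past the test under all 21 alternatives (-1.03 to -0.66), and that of Cldn7 under 14 of 21 (0.42 to 0.64). Leaving out 1 array in turn, 0 to 1 of the 9 genes were called for VILI in wild type, 0 to 1 in knockout, 1 to 3 averaged and 0 in both genotype comparisons and the interaction. In knockout 1 gene was called with arrays centred, with quantile normalization and with the replicate block, and in wild type 1 with only the groups compared fitted and 1 without both knockout replicate 3 arrays. Averaged, 1 was called with arrays centred and 3 with quantile normalization. With the replicate block the averaged values of Jup and Cldn7 had limma adjusted p = 0.0129 and 0.0166, Cldn7 in knockout passed (0.0392), and no other call of the 9 genes changed. For knockout against wild type in SB, the values with this block, fitted over all 12 arrays, had adjusted p = 0.295 for Cldn18 and 0.292 for Cdh1. Changes near 0 turned sign: Cdh1 in wild type was -0.0241 centred and -0.0047 with quantile normalization, Cgn in wild type was 0.0165 with the mean of probe sets, and without both knockout replicate 3 arrays Cldn18 in knockout was 0.048, Ocln in knockout 0.0106 and the Jup interaction 0.29. Leaving out 1 array in turn, they ranged in wild type from -0.20 to 0.0165 for Tjp1, -0.0453 to 0.0377 for Cdh1 and -0.15 to 0.22 for Cgn. In knockout they ranged from -0.0502 to 0.21 for Cldn3, -0.18 to 0.008 for Cldn18, -0.27 to 0.28 for Ocln, -0.20 to 7e-04 for Tjp1, -0.20 to 0.0945 for F11r and -0.11 to 0.43 for Cgn. Cgn averaged ranged from -0.0584 to 0.21 and the Jup interaction from -0.44 to 0.15. Causes were not tested. Of the 23 related genes called, 16 stayed past the test with no filter on low values, 17 with the mean of probe sets, 16 without both replicate 3 arrays and 21 to 23 with the stricter filter, centred arrays, quantile normalization, each probe set tested, no variance trend or the replicate block, while 11 were lost at least in 1 fit that left out 1 array.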

Other observations

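For the 3 junction genes with the largest SD over the 12 arrays, the genes with the most similar pattern were found by the root mean square difference between deviations from each gene's own mean log2 value. For Jup these were Plxna1 (0.18), Slc9a3r2 (0.18) and Fmo5 (0.18), against a median of 0.59 over all genes. For Cldn7 they were Mrpl54 (0.14), Ezr (0.15), which encodes the membrane and actin linker ezrin, and Rela (0.16), a subunit of NF-kappaB, against a median of 0.45. For Cgn they were Fads3 (0.14), Llgl2 (0.15), a polarity gene, and Farp1 (0.16), against a median of 0.42. The likeness is over 12 arrays that share their group differences.

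Over the 12 arrays Jup had an SD of 0.58, a larger one than 91.7% of all genes, and Cdh1 (0.15) and Tjp1 (0.15) had larger ones than 15.6% and 16.8%.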
